A study of Mus musculus with 2 samples.

Results

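The mir-379 to mir-410 cluster is the distal group of microRNA (miRNA) genes in the imprinted Dlk1-Dio3 region of mouse chromosome 12. Its members were taken by position, as all genes of type miRNA in GENCODE M21 on the plus strand of chromosome 12 inside a fixed window of GRCm38 (mm10) that opens upstream of Mir379 and closes past Mir3072. This gave 39 of the 2202 annotated miRNA genes. Their coordinates run from 109709060, the start of Mir379, to 109747960, the end of Mir3072, so the window also held 1 gene beyond Mir410. MicroRNA sequencing measured RNA shorter than 30 nucleotides from the adrenal gland of adult male mice of strain 5xFAD/CAST, aged 8 to 10 months. The strain label joins the name of a transgenic model of Alzheimer's disease with that of a wild-derived strain. The labels give neither the transgene status of the animals nor which parent was CAST. The 2 libraries are biological replicates 1 and 2 of 1 group, with different sample records and the same donor record, so their spread may be partly technical. With 1 group there was no contrast between conditions.

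A miRNA gene encodes a hairpin that Drosha and Dicer cut into a 5p and a 3p arm of about the length of the reads, and the bases of the seed, near the 5′ end of the loaded arm, direct pairing with target messages. The genes of this region are expressed from the maternal chromosome together with the noncoding RNAs Meg3, Rian and Mirg, while the paternal chromosome expresses the protein-coding genes. The cluster is known from brain, where neuronal activity and Mef2 factors raise its expression, and its maternal deletion in mice disturbs the metabolic switch at birth.

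RefSeq's table for GRCm38.p6 held mature sequences for 38 of the 39 members, and entries of both arms for 33. Gm27379 was not matched. The sequences below are those of the 7 members that reached a mean of 1000 reads in 1000000 miRNA reads, printed 5′ to 3′ with the seed (bases 2 to 8) in capitals. The counts belong to whole hairpins, so they do not show which arm was read.
miR-379-5p: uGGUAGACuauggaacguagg
miR-379-3p: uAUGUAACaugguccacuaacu
miR-411-5p: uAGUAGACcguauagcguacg
miR-411-3p: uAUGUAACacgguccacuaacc
miR-382-5p: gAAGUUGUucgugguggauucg
miR-382-3p: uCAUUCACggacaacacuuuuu
miR-541-5p: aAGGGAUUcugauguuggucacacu
miR-541-3p: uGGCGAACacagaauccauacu
miR-134-5p: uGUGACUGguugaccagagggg
miR-134-3p: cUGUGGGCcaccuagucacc
miR-409-5p: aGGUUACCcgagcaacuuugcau
miR-409-3p: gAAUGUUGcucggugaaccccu
miR-376c-5p: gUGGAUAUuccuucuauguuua

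The 71 mature entries of the members held 65 different seeds. Among these entries, a seed was shared by 2 members in 6 cases, which involved 11 members. Arms without an entry could not be compared, so further cases may exist. Mir379 and Mir411, the highest members, share the seed of their 3p arms, AUGUAAC, printed above, while their 5p seeds are different. The other shared seeds lie in the 5p arms, except that the single entry of Mir453 is not named by arm. The following sequences are the partners in those groups, shown so that each group can be read in full beside the levels of its genes.
miR-1193-5p: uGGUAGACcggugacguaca
miR-376b-5p: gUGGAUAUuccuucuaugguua
miR-494-5p: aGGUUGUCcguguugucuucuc
miR-410-5p: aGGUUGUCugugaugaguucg
miR-758-5p: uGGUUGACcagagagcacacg
miR-1197-5p: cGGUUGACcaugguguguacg
miR-496a-5p: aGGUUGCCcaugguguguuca
miR-453: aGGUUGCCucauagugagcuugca

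Short runs of letters also recurred among the mature arms. In some entries they lie within the seed, as in miR-379-5p, so these counts overlap with the shared seeds. In others they lie past it, as in miR-154-3p. The letters GGUNGAC, with N any base, occurred in 9 of the 71 entries of members and in 4 of the 1667 other entries of the table (0.748% of all mature entries). The letters GGUUNNCC occurred in 14 of the 71 and in 6 of the 1667 (1.15% of all), and 5 entries of members held both. Only the strand of the mature RNA was searched, and both sets of letters were chosen after the sequences had been read. In entries of genes that are not members, 11 seeds of members recur. That of miR-299a-3p recurs in miR-299b-3p, whose gene lies on the opposite strand of the same site. That of miR-329-3p recurs in miR-362-3p, that of miR-410-3p in miR-344d-3p and miR-344e-3p, and that of miR-1193-3p in miR-370-5p, whose gene lies in the proximal part of the same imprinted region.

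Levels are given in CPM (counts scaled to a fixed total), the reads on the strand of the gene scaled to 1000000 such reads over all miRNA genes of a library. The cluster held 5.94% of these reads in replicate 1 (403092 of 6783227, Wilson 95% interval 5.92 to 5.96) and 4.89% in replicate 2 (150698 of 3084602, 4.86 to 4.91). The mean was 5.41% ± 0.747 (SD, n = 2). The intervals cover counting error only. Of the 39 members, 34 were above 2 CPM in both libraries, beside 15.2% of all 2202 annotated miRNA genes. A mean of at least 10 CPM was reached by 33 members, beside 12.7% of all annotated genes. The adrenal gland thus held reads of nearly the whole cluster, at very unequal levels.

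Mir379, the first gene of the cluster (ENSMUSG00000065498.4, 109709060 to 109709125), had 19503 CPM in replicate 1 against 15644 CPM in replicate 2. Mir411, the second (ENSMUSG00000065477.3, 109710175 to 109710256), stood at 17416 and 12689 CPM. Their order was not resolved beyond the replicate spread, with means of 17574 ± 2729 and 15053 ± 3342 CPM (SD, n = 2). These 2 genes ranked 17 and 18 among all miRNA genes and held 62.1% of the reads of the cluster in replicate 1 and 58.0% in replicate 2.

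Mir382 (109733771 to 109733846), described in work on neurons as a regulator of a dopamine receptor, had 7312 CPM in replicate 1 against 4681 CPM in replicate 2. Mir541 (109742409 to 109742498) was at 5491 and 5106 CPM. Mir382 was the higher of this pair in replicate 1 and the lower in replicate 2, so they were not ordered. Both lay below Mir411 and above Mir134 beyond the replicate spread, by the rule that both libraries order the genes alike and both gaps exceed the replicate difference of either gene.

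Mir134 (109734139 to 109734209), known for limiting the size of dendritic spines in hippocampal neurons, was at 2031 and 1836 CPM in replicates 1 and 2. Its neighbour Mir485, also known from neurons, was at 568 and 550 CPM, and Mir134 exceeded it 3.57-fold and 3.34-fold. Mir409 (109743158 to 109743236) was at 955 and 1270 CPM, and Mir376c (109722718 to 109722803) at 988 and 1137 CPM. These last 2 were not ordered against each other. Among the 10 highest members, 38 of 45 pairs were ordered, and along the full order of the 33 members of at least 10 CPM, 7 of 32 neighbouring pairs were.

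**Figure D1:**
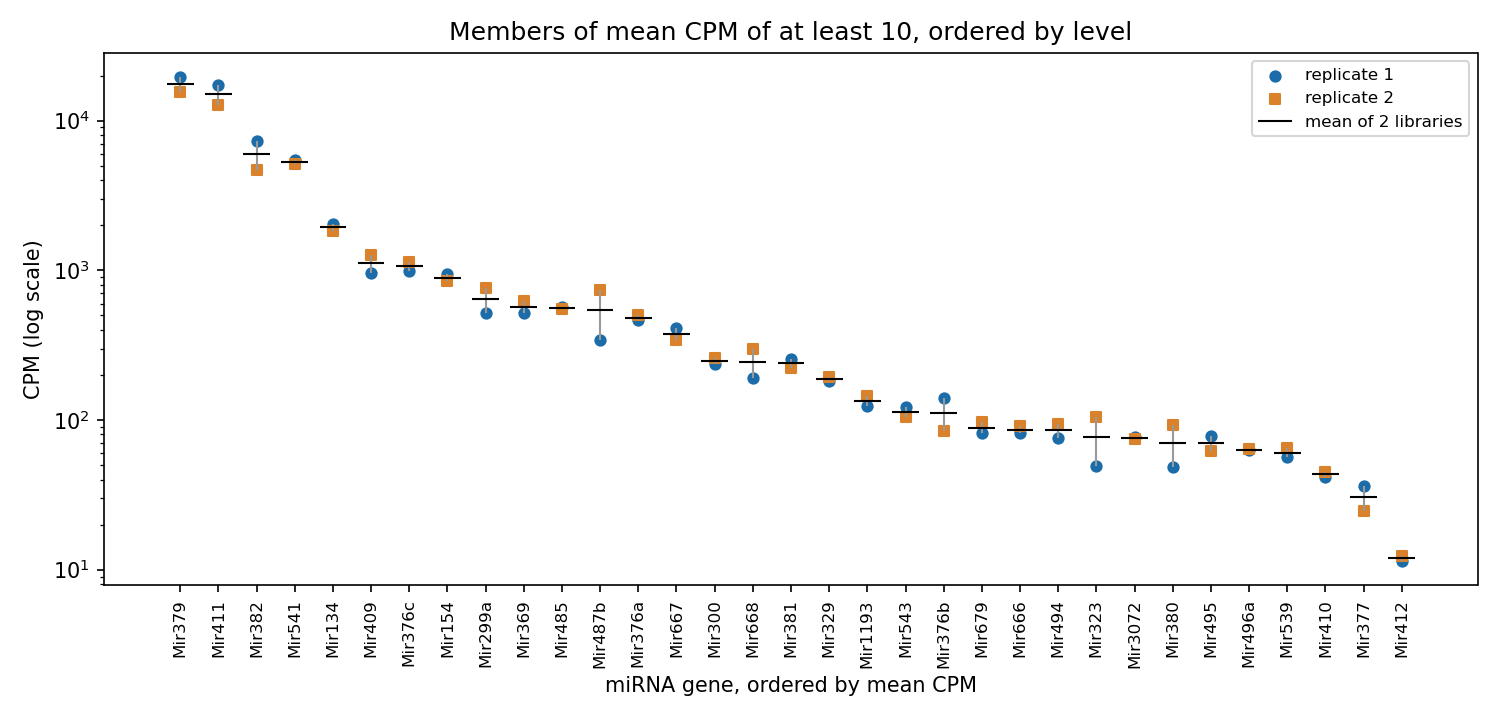
CPM on a log scale of the 33 members of mean CPM of at least 10, ordered by mean, with a circle for replicate 1, a square for replicate 2 and a bar for their mean. Mir379 and Mir411 are the highest, at 12689 CPM or more in both libraries, and Mir412 is lowest at 11.5 and 12.3 CPM.

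Below these 7 genes the levels were spread widely. The mean lay from 112 to 895 CPM in 14 members and from 11.9 to 89.1 CPM in 12. The 7 highest genes held 88.5% of the reads of the cluster, the 14 next 10.0% and the 12 next 1.43%. Mir412, the lowest of the 33, was 1696-fold below Mir379 in replicate 1 and 1270-fold in replicate 2. The other 6 members were under 3 CPM. Mir758 had 2.95 and 2.59 CPM and Mir544 1.03 and 1.30 CPM in replicates 1 and 2, and Mir1197 had 0 and 1 read. Mir654, Mir453 and Gm27379 had 0 reads in both libraries, which allows up to 3 reads, or 0.442 CPM in replicate 1 and 0.973 CPM in replicate 2.

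Every other member of 100 CPM or more lay between Mir376c and Mir376b in mean level. Mir154, inside an intron of Mirg, had 945 and 844 CPM in replicates 1 and 2 and was lower in the latter. Mir299a had 521 and 759 CPM, and Mir369, overlapping an exon of Mirg, had 517 and 623 CPM, both higher in replicate 2. Among Mir154, Mir299a and Mir369, neither Mir154 and Mir299a nor Mir299a and Mir369 were ordered. Mir667 had 412 and 341 CPM, Mir300 had 237 and 260 CPM, and Mir381 had 257 and 222 CPM. Mir668 had 190 and 297 CPM, and its log2 difference was 0.64. Mir329 had 182 and 195 CPM and Mir543 had 122 and 104 CPM. These genes filled the range without a clear break.

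From 10 to 100 CPM, 9 of 12 members were higher in replicate 2, beside 50.7% of all 280 miRNA genes at 10 CPM or more. The 280 include genes above 100 CPM. Their split within this band was not counted, so whether 9 of 12 is unusual was not tested. Mir380 had 48.4 and 92.1 CPM in replicates 1 and 2, a log2 difference of 0.92 that came close to the 2-fold limit. Mir679 had 81.5 and 96.6 CPM, Mir666 had 81.8 and 90.8 CPM, and Mir539 had 56.2 and 64.8 CPM. The 3 that were lower in replicate 2 were Mir495 at 78.0 and 61.6 CPM, Mir377 at 36.1 and 24.6 CPM, and Mir3072 at 76.7 and 74.2 CPM. Mir3072 also had the highest GC content of the 39 hairpins. Under TMM factors and under DESeq2 size factors, 6 of these 12 members were higher and 6 lower, so the count of higher members depends on the scaling.

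Of the 6 pairs of members with a common seed, some stood at like levels and others far apart. Mir379 and Mir411, with the same 3p seed, differed 1.12-fold and 1.23-fold in replicates 1 and 2 and were not ordered. Mir379 also shares its 5p seed with Mir1193, which was at 124 and 144 CPM in replicates 1 and 2, so the ratio of these genes was 157 and 109. Mir494 was at 76.1 and 94.3 CPM, and Mir410, with the same 5p seed, at 41.9 and 44.7 CPM. Mir496a was at 63.1 and 63.5 CPM, while Mir453, with a matching seed, had no reads. Mir758 and Mir1197, the pair with the seed GGUUGAC, were both among the 6 members under 10 CPM. The 9 genes with GGUNGAC in a mature arm ranged from 0.162 to 17574 CPM by mean and held 38.2% of the reads of the cluster in each library. Most of these were reads of Mir379, which alone held 32.8% in replicate 1 and 32.0% in replicate 2. The 13 genes with GGUUNNCC ranged from 0.162 to 1934 CPM and held 9.28% in replicate 1 and 12.7% in replicate 2.

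The mir-376 genes are known as targets of adenosine-to-inosine editing, which can change their seeds. Mir376c was highest, Mir376a followed at 466 and 499 CPM in replicates 1 and 2, and Mir376b was at 139 and 84.0 CPM. Mir376c exceeded Mir376a 2.12-fold and 2.28-fold in the libraries. It exceeded Mir376b, with which it shares a seed and 31 bases of the hairpin, 7.10-fold and 13.5-fold. Edited reads carry a mismatch to the genome, and whether they were counted is not given in the sources used here.

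Along the 38.9 kb of the cluster, high and low genes were interspersed. The 25 members from Mir379 to Mir544 lie upstream of the annotated start of Mirg, and the 14 from Mir382 to Mir3072 lie within Mirg (109729764 to 109749460), 9 of them overlapping an exon and 5 in introns. The upstream members held 69.3% of the reads of the cluster in replicate 1 and 68.4% in replicate 2. Most of these were reads of Mir379 and Mir411. By median over members of at least 10 CPM, the 20 upstream members stood at 161 CPM and the 13 within Mirg at 559 CPM. Across the 33 members, which share their libraries and scaling, mean level was nearly unrelated to distance from Mir379 (Spearman's rho -0.13) and to the GC content of the hairpin (rho -0.0040), which ran from 29.1% to 72.3% over the 39.

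**Figure D2:**
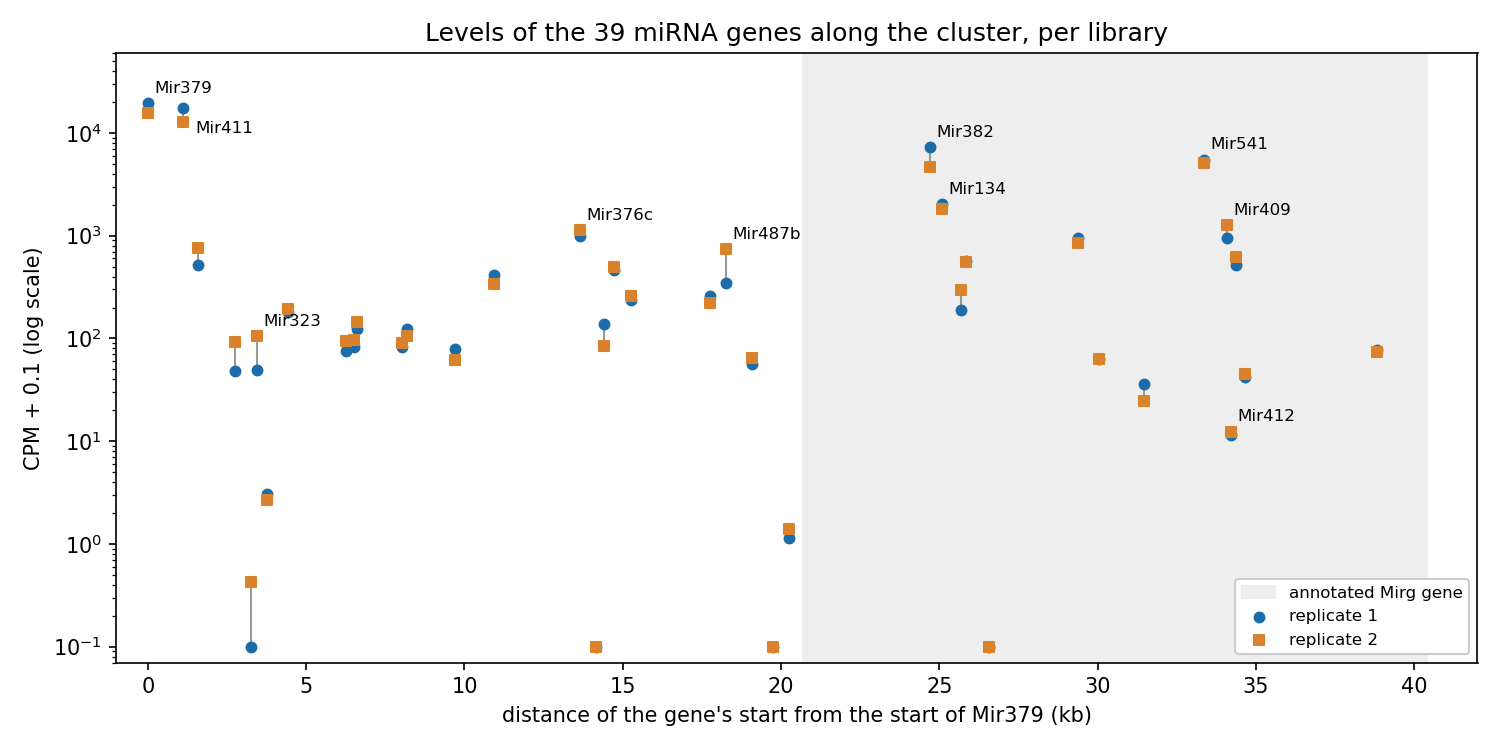
CPM + 0.1 on a log scale of each of the 39 members against the distance of its start from that of Mir379 in kb, with circles for replicate 1, squares for replicate 2 and shading over the annotated Mirg gene. The 2 highest genes lie at the left end, outside Mirg, and the 3 symbols at the floor of the plot away from the left end are members with 0 reads in both libraries.

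The strand of the reads was resolved at 5 hairpins. Mir299a, Mir380, Mir376a, Mir539 and Mir409 overlap miRNA genes annotated on the minus strand, and they held 3.44% of the reads of the cluster in replicate 1 and 5.50% in replicate 2. The minus-strand genes Gm25750, Gm25252, Gm44322 and Gm24321 had 0 reads on their own strand in both libraries, and Mir299b had 4 in replicate 1 and 0 in replicate 2. In the column for both strands, all 5 members were listed at 0, so that column was used only as an alternative.

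Sequence shared between hairpins touched 6 members. Mir411 and Mir758 share 21 bases, which hold 0 of the 21 bases of miR-411-5p and 12 of the 22 of miR-411-3p. Mir376b shares 31 bases with Mir376c and 20 with Mir487b. Mir299a shares 42 bases with Mir299b on the opposite strand of the same site, including 21 of the 22 bases of miR-299a-5p. No mature arm in the table lay wholly within a shared stretch. Reads that aligned to several places were counted for no gene, so the counts of these 6 are lower limits.

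Between the replicates, 2 of the 33 members of at least 10 CPM differed at least 2-fold, beside 10.7% of the 280 miRNA genes of at least 10 CPM. These differences compare 1 library with 1 library, with no test. Mir487b had 343 CPM in replicate 1 against 740 CPM in replicate 2, a log2 difference of 1.11 on the log2(CPM + 1) scale. Mir323 was at 49.1 and 105 CPM, a log2 difference of 1.08. Both were higher in replicate 2, where 6.07% of the 280 genes passed the limit upward, and 0 members were at least 2-fold lower, beside 4.64% of the 280 genes. Under TMM factors Mir323 was below the limit (0.98), and under DESeq2 size factors both did (0.94 for Mir323 and 0.97 for Mir487b). Of the 280 genes, 10.4% differed at least 2-fold under TMM factors and 8.93% under DESeq2 size factors. Mir487b shares 20 bases with Mir376b, which was lower in replicate 2 with a log2 difference of -0.72.

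The other members differed less, and 25 of the 33 lay within 0.5 in log2, beside 199 of the 280 genes. The range of all 33 members was from -0.72 to 1.11 with a median of 0.094, beside 0.012 for the 280 genes. By sign, 19 members were higher in replicate 2 and 14 lower, beside 50.7% of the 280 genes higher. This split turned to 14 and 19 under TMM factors and 13 and 20 under DESeq2 size factors. The split of the 280 genes was not counted under these factors, but their median also fell. It was -0.089 under TMM factors and -0.12 under DESeq2 size factors, beside -0.0023 and -0.037 for the members. Across the 33 members, Pearson's r of log2(CPM + 1) between the libraries was 0.986 and Spearman's rho 0.955, as a description of genes that share 2 libraries.

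The 5 highest members were lower in replicate 2, and the rest of the cluster was higher as a sum but mixed by member. Mir379, Mir411, Mir382, Mir541 and Mir134 were all lower in replicate 2, with log2 differences of -0.32, -0.46, -0.64, -0.10 and -0.15. Together they went from 5.18% to 4.00% of all miRNA reads. The other 34 members went the opposite way as a sum, from 0.767% (Wilson 95% interval 0.761 to 0.774) to 0.890% (0.879 to 0.900). Of these 34, 21 were higher in replicate 2, 10 were lower and 3 had no reads. Over the 280 genes of at least 10 CPM, 50.7% were higher. The 34 include the 6 members under 10 CPM, of which 2 were higher and 1 lower. The largest rises in CPM among the 34 were those of Mir487b (343 to 740) and Mir409 (955 to 1270). Both sums kept their direction as percentages of the scaled library totals, which are not shares of reads. Under TMM factors they went from 5.36% to 3.86% and from 0.795% to 0.859%. Under DESeq2 size factors they went from 5.43% to 3.81% and from 0.804% to 0.849%. The count by member became nearly even under TMM factors, with 16 of the 34 higher in replicate 2 and 15 lower. With the size factors of DESeq2 it turned by a small margin, with 15 higher and 16 lower. The 5 genes therefore took 87.1% of the reads of the cluster in replicate 1 and 81.8% in replicate 2. With 2 libraries, no test of this difference was possible.

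**Figure D3:**
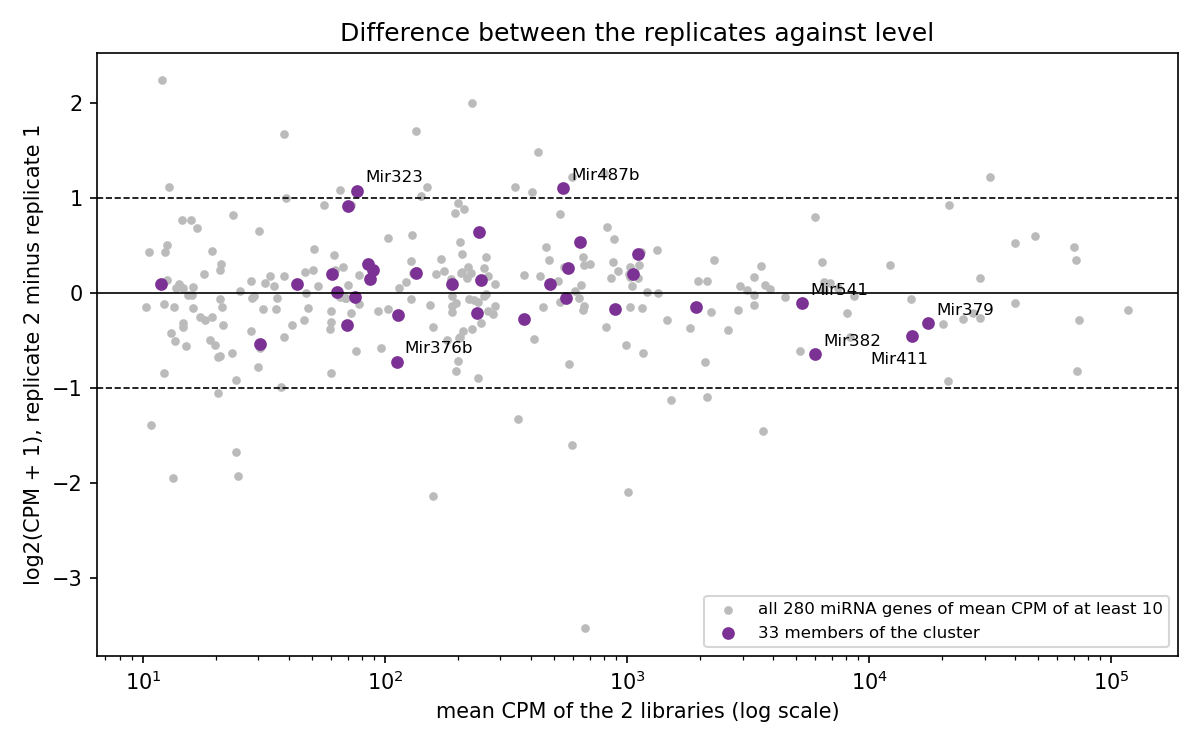
Difference of log2(CPM + 1), replicate 2 minus replicate 1, against mean CPM on a log scale, for the 280 miRNA genes of mean CPM of at least 10 (grey) and the 33 members among them (purple), with dashed lines at a 2-fold difference. Mir323 and Mir487b lie above the upper line, and the 5 highest members lie below 0.

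The proximal miRNA genes of the region, here the 20 on the plus strand from Mir1906-1 (start 109544541) to Mir882 (end 109682273), are known for lying around and opposite Rtl1, which Mir127 and Mir433 can silence by perfect pairing. Of these genes, 15 were above 2 CPM in both libraries, beside 15.2% of all 2202 annotated miRNA genes. They held 3.55% of miRNA reads in replicate 1 and 3.11% in replicate 2, so the distal cluster held 1.67 and 1.57 times as many reads. Mir127 was at 26749 and 22081 CPM in replicates 1 and 2, which was 1.37-fold and 1.41-fold above Mir379. The next proximal genes were Mir433 at 2861 and 3004 CPM, Mir337 at 2053 and 1597 CPM and Mir431 at 932 and 1125 CPM. Without the highest gene of each group, the distal cluster held 4.57 and 3.66 times the reads of the proximal group. Both groups were lower as a sum in replicate 2. Mir127 held 75.4% of the reads of the proximal group in replicate 1 and 70.9% in replicate 2. The highest genes thus held a smaller part of their group in replicate 2 in both groups. Of the 15 proximal genes of at least 10 CPM, 1 differed at least 2-fold between the replicates, beside 2 of 33 distal ones. Over all 280 miRNA genes of at least 10 CPM this share was 10.7%.

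**Figure D4:**
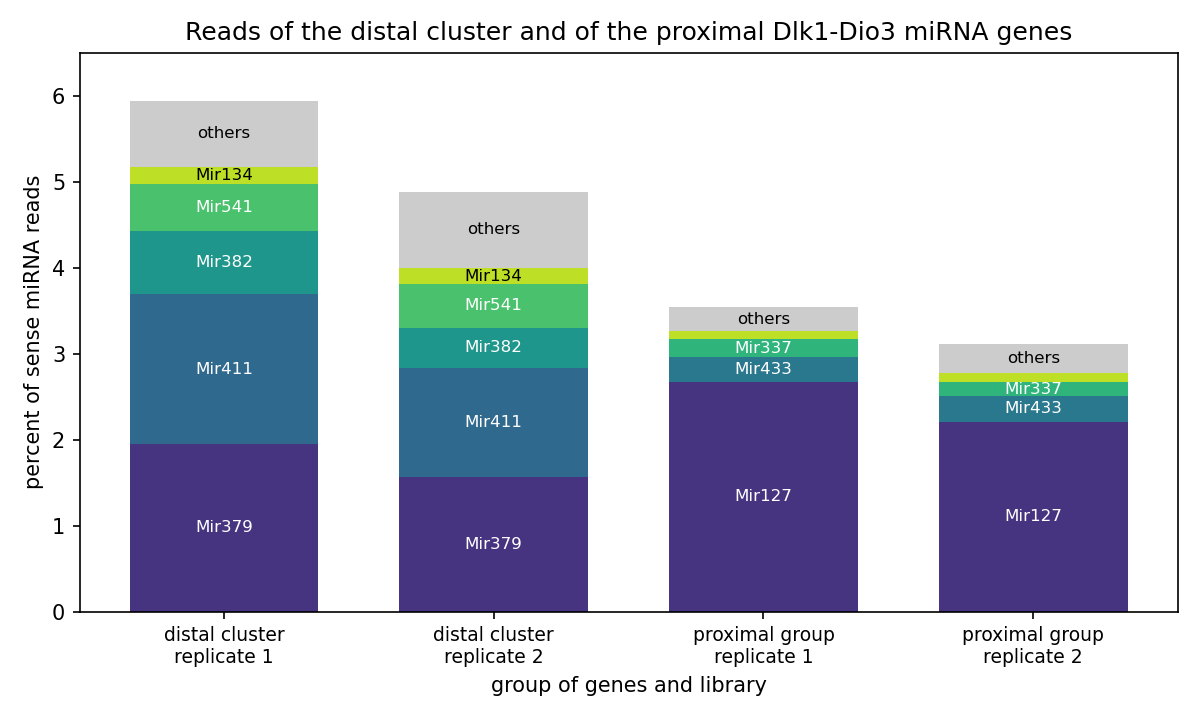
Percent of sense miRNA reads in the distal cluster and in the proximal group, as stacked bars for each library, with the highest genes in colour and the others in grey. The unlabelled yellow segment of the proximal bars is Mir431. The distal bars reach 5.94% and 4.89%, and the proximal bars 3.55% and 3.11%.

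The libraries held 13209343 and 6482170 reads in replicates 1 and 2, and multimapping reads, which belong to no gene in these tables, made up 30.3% and 32.1% of them. Cell types were not separated, so fewer cells of a type and less miRNA per cell cannot be told apart. Neuroendocrine markers (Mir375 and the mir-7 genes), known from the adrenal medulla, held 6.36% and 8.72% of miRNA reads, though 2 of these 4 genes share 20 bases with another hairpin and reads in those bases belong to no gene here. Mir126a of endothelium held 9.26% and 5.25%. Smooth muscle markers held 2.95% and 2.56%, erythroid markers 0.554% and 0.214%, leukocyte markers 0.0610% and 0.0693%, and the liver marker Mir122 0.0257% and 0.00577%. The gonad marker Mir202 was at 19.0 and 22.7 CPM and the 4 striated muscle markers summed to 5.45 and 4.21 CPM. Of the 4 neuronal markers, Mir137 summed to all of the 713 and 1057 CPM of the list. The 3 Mir124a genes had 0 reads, and they too share 20 bases with another hairpin. The cluster and the endothelial, smooth muscle, erythroid, liver and striated muscle markers had lower shares in replicate 2. Neuroendocrine, leukocyte, gonad and neuronal markers had higher ones, the last by Mir137 alone. The part of these cell types in the difference of the cluster was not tested.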

How the data were processed

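Small RNA of 2 adrenal gland libraries of 1 group was analysed. The authors deposited read counts per miRNA gene for each library, on assembly mm10 with the GENCODE M21 annotation, per a text file the authors placed with it. The 3 count columns have no header and follow the layout of STAR gene counts (both strands, sense, opposite). No source used here gives the aligner's version, the trimming or the mismatches allowed. Multimapping reads were assigned to no gene. Any effect of CAST variants on alignment was not tested.

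Sense counts were scaled to CPM on all 2202 miRNA genes, leaving the mapping lines out. A count of 0 allows 3 reads. Replicate differences were log2(CPM + 1), replicate 2 minus replicate 1, for genes of mean CPM of at least 10, called at 1 or more with no test. TMM factors came from edgeR 4.0.16 and size factors from DESeq2 1.42.0. Both were estimated on all 2202 miRNA genes with no filter on level, so genes of few reads entered them. The DESeq2 size factors were 1.414 in replicate 1 and 0.707 in replicate 2. How far genes of few reads set these factors was not tested. The CPM and fold steps were tested on simulated data. Genes shared sequence where 20 bases of their GENCODE hairpins matched. Mature sequences were RefSeq's (GRCm38.p6).

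The text names members of mean CPM of at least 1000, the lowest, those at 0 reads, those differing at least 2-fold, those sharing a seed, the mir-376 genes, Mir134, Mir485 and the 4 highest proximal genes. Other named genes were chosen after their values were seen. Members, lists and alternatives were chosen with earlier results of these data known. Mir7a-1 and Mir7a-2 were matched to Mir7-1 and Mir7-2.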

Additional observations from a re-analysis of the deposited data

Results flagged for a closer look

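Reads outside the counts of the members were flagged in 2 places. The minus-strand Mir299b, opposite Mir299a, had 4 reads on its own strand in replicate 1, above the 3 reads that a count of 0 allows. Multimapping reads made up 30.3% of the table of replicate 1 and 32.1% of that of replicate 2, with no gene named for them.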

How the results depend on the processing

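The share of the cluster, 5.41% of sense miRNA reads, was 2.69% with all reads of the table as denominator and 3.67% without the 6 members that share 20 bases with another hairpin, of which Mir411 is the most abundant. It ranged from 4.89% to 5.94% when each replicate was left out. The share of cluster reads in Mir379, 32.4%, was 33.9% with the column for both strands and 47.8% without those 6 members, and 32.0% to 32.8% with each replicate left out. The share of the 5 highest, 84.4%, was 88.4% with the column for both strands and 81.8% to 87.1% with each replicate left out. The ratio of distal to proximal reads, 1.62, was 1.10 without genes that share 20 bases and 1.57 to 1.67 with each replicate left out. The number of members above 2 CPM in both libraries, 34, was 29 to 35 over the alternatives for the limit and the column. The 2 members that differed at least 2-fold were 1 under TMM factors (beside 10.4% of the 280 genes), 0 under DESeq2 size factors (beside 8.93%), 1 at a mean of at least 100 CPM and 1 without members that share 20 bases. The median replicate difference of the members turned from 0.094 to -0.0023 under TMM factors, -0.037 under DESeq2 size factors, -0.049 at a mean of at least 100 CPM and -0.082 with the column for both strands. Over the 280 genes the median moved from 0.012 to -0.089 under TMM factors and -0.12 under DESeq2 size factors. The cause of these changes was not tested, beyond the genes or reads that each alternative leaves out. No paired analysis was possible because there is 1 group. Leaving out a replicate gives no replicate difference and no order of pairs.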

Other observations

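Hairpins that lie next to each other stood at unequal levels. Mir409, Mir412, Mir369 and Mir410 follow each other with gaps of 52, 49 and 218 bases. Mir412 was 83.1-fold below Mir409 in replicate 1, at 11.5 against 955 CPM, and 45.0-fold below Mir369, at 517 CPM. Mir369 was in turn 12.3-fold above Mir410, at 41.9 CPM. All of these gaps in level exceeded the replicate spread. Over the 9 adjacent pairs with a gap of at most 300 bases and both genes at 10 CPM or more, the ratio of the mean levels ran from 1.05 to 93.4 with a median of 3.10, and 7 of the 9 were ordered beyond the replicate spread. Neither Mir494 and Mir679 nor Mir666 and Mir543 were. These pairs were chosen after their values were seen.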
